A study of Mus musculus with 8 samples.

Results

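The genes described here are 9 markers of the pancreatic endocrine cells that do not make insulin: Gcg, Ttr, Irx1 and Irx2 for alpha cells, Sst, Hhex and Rbp4 for delta cells, and Ppy and Pyy for PP cells. They were found by symbol among the 55487 Ensembl gene identifiers of the deposited tables, and all 9 were present. They were read in RNA of pancreatic beta cells purified by flow sorting from dispersed islets, with 4 libraries labelled Control and 4 labelled Chd4KO. Both groups of mice received tamoxifen. The Chd4KO animals, called Chd4Db in the design text, are mutants for Chd4, the helicase subunit of the NuRD chromatin remodelling complex. The Cre line, floxed allele, strain, sex and age of either group are not given in the sources used here, nor is the gate of the sort. Sample titles give every library a different animal number, and libraries were therefore taken as separate mice. Should they be splits of 1 sample, the p-values would cover technical spread alone.

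Pancreatic islets hold several endocrine cell types, each defined by the peptide hormone it secretes. Alpha cells release glucagon, which raises blood glucose, delta cells release somatostatin, which restrains neighbouring insulin and glucagon secretion, and PP cells release pancreatic polypeptide, a peptide that acts on appetite and on exocrine secretion. Alpha identity is held by transcription factors that include the Iroquois proteins, and delta identity by Hhex. The question put to the 9 genes was whether the markers of a cell type move together from library to library, as they would where libraries differ in the number of cells of that type. In bulk RNA of sorted cells, fewer cells of a type and less RNA per cell cannot be told apart.

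The 250 bases upstream of the RefSeq start are shown for the genes on which the results turn: the 3 hormone genes Gcg, Sst and Ppy, the delta marker Rbp4, and Pyy, which lies next to Ppy. All are given 5′ to 3′ on the strand of the gene from build GRCm38.p6, and capitals mark matches to TATAAA (the TATA box) and to TGACGTCA (the cAMP response element) or its half-site TGACG, on either strand. The half-site is contained in the full element.
Gcg, minus strand of chr2:62483654-62483903: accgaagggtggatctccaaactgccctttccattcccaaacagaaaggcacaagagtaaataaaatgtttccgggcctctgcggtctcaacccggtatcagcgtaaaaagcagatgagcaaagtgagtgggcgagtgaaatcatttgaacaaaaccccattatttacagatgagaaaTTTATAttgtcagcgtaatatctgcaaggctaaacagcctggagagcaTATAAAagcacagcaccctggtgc
Sst, minus strand of chr16:23890845-23891094: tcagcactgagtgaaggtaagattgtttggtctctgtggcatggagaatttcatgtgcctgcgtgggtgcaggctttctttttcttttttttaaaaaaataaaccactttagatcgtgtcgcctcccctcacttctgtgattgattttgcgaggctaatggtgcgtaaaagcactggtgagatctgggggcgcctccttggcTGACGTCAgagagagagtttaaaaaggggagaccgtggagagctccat
Rbp4, minus strand of chr19:38124812-38125061, the second of 2 RefSeq starts, 470 bases downstream of the GENCODE start: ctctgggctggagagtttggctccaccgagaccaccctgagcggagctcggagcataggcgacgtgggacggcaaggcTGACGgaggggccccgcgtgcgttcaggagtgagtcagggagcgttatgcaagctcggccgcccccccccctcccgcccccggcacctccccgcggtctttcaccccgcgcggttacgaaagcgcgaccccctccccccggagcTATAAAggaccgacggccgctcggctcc
Ppy, minus strand of chr11:102101320-102101569: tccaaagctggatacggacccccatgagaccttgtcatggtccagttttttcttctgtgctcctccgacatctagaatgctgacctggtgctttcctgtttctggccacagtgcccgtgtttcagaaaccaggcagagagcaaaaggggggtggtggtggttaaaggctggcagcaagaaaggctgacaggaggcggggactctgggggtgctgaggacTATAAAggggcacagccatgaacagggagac
Pyy, minus strand of chr11:102107833-102108082: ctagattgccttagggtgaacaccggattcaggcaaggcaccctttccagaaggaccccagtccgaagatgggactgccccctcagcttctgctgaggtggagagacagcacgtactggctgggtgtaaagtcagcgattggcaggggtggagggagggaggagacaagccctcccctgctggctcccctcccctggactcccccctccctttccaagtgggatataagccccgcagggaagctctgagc
The Gcg, Ppy and shown Rbp4 windows held TATAAA, which 12.4% of 32851 mouse promoter windows of this length held. The Sst window held the full TGACGTCA, present in 1.55% of windows, and the shown Rbp4 window held TGACG alone, present in 17.8%. The window of the other Rbp4 start, 40 bases from the GENCODE start, held neither TATAAA nor TGACG. No match to any of these 3 motifs was found in the Pyy window, and TAATTA, a homeodomain core present in 4.84% of windows, was in none of the 5. These matches are descriptions of the sequence and were not tested against the expression data. Promoter entries matched 7 of the 9 genes.

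Levels are given in TPM, transcript abundance scaled to gene length and to a fixed total per library. The libraries held 16392749 to 41014291 recovered reads in genes in the Control group and 14928087 to 20164429 in the Chd4KO group. Chd4 had a mean of 13.2 ± 2.08 TPM (SD, n = 4) in Control and of 5.60 ± 2.40 TPM (n = 4) in Chd4KO libraries, ranges of 11.1 to 16 and 2.59 to 8.38 that do not overlap, with a limma adjusted p of 0.0725. The beta label fits the markers: Ins1 plus Ins2 made up 32.4 to 62.0% of all TPM, and all 10 genes of a beta cell list passed the filter. In the limma fit across 15189 genes, 451 genes (2.97%) had an adjusted p under 0.05, 233 of them higher and 218 lower in Chd4KO, and the median log2 difference of all tested genes was -0.25. Chd4KO replicate 2 stood apart in exocrine genes, with 42050 TPM summed over 16 acinar markers against 1698 in Control replicate 2 and 2.63 to 238 in the other 6 libraries. Chd4KO replicate 4 stood apart in insulin, with 62.0% of TPM against 32.4 to 47.0% elsewhere, and in having 12702 genes at 1 TPM or more against 14788 to 15923 in the others.

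The hormone transcripts of other islet cells were abundant in every beta cell library, while the transcription factors of those cells were near the limit of detection. In Control libraries the mean TPM ran from Ppy through Gcg, Sst, Pyy, Ttr, Rbp4, Hhex and Irx2 to Irx1. Within that order the ranges of neighbours were apart only between Pyy and Ttr, between Rbp4 and Hhex, and between Irx2 and Irx1. Ranked among all genes by mean TPM, Ppy was 16th and Gcg 20th in Control libraries, whereas Hhex ranked 14636th. In Chd4KO libraries Gcg came first and Rbp4 moved above Ttr, and the neighbours that were apart were Rbp4 and Ttr, Ttr and Hhex, and Irx2 and Irx1.

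**Figure D1:**
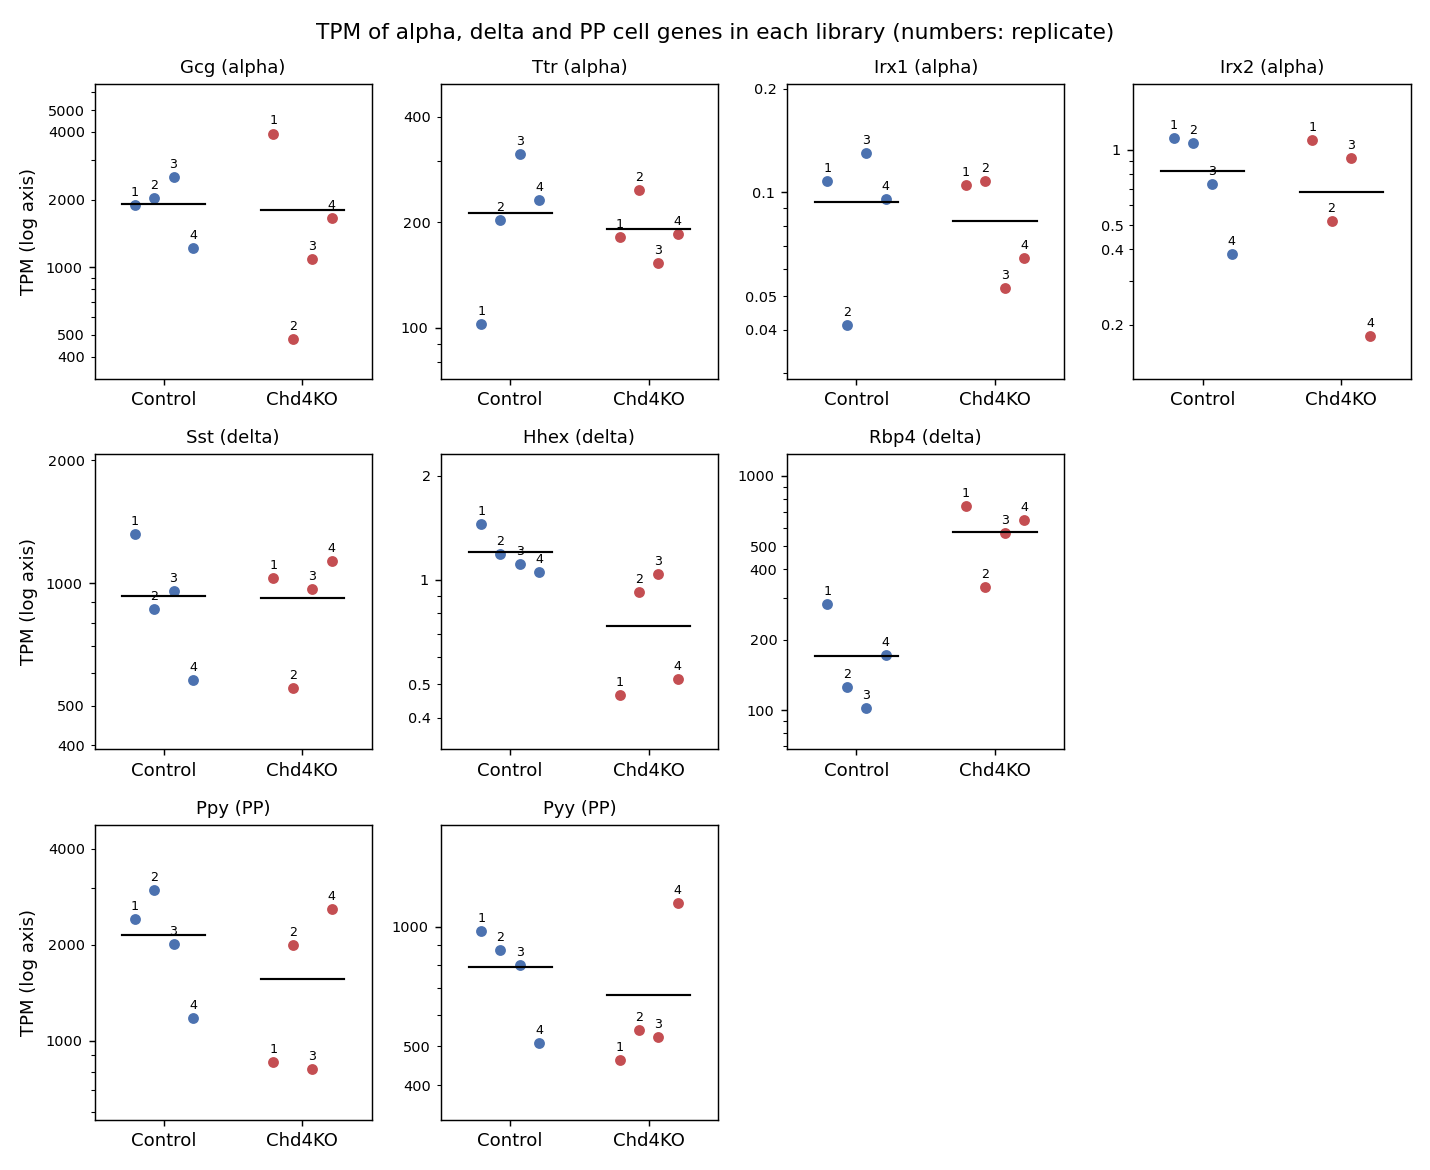
TPM of each of the 9 genes in each library on a log axis whose range differs between panels; points are libraries, labelled by replicate number, and lines are group means (n = 4). Rbp4 in the Chd4KO libraries (337 to 747 TPM) lies wholly above the Control libraries (102 to 285), Hhex lies wholly below, and the other 7 genes overlap between groups.

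Between genotypes, 1 of the 9 genes passed the test: Rbp4, a retinol carrier and delta cell marker, rose, and no other of the 9 passed. Of the 9, 7 reached the filter of 1 TPM in at least 4 libraries and Irx1 and Irx2 did not. The 1 call was higher in Chd4KO, against 1.53% of all tested genes called higher and 1.44% called lower. Without overlap between the groups were Rbp4, higher (3.54% of tested genes were), and Hhex, lower (11.3% were). The median log2 difference of the 7 tested genes was -0.29, against -0.25 for all genes.

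**Figure D2:**
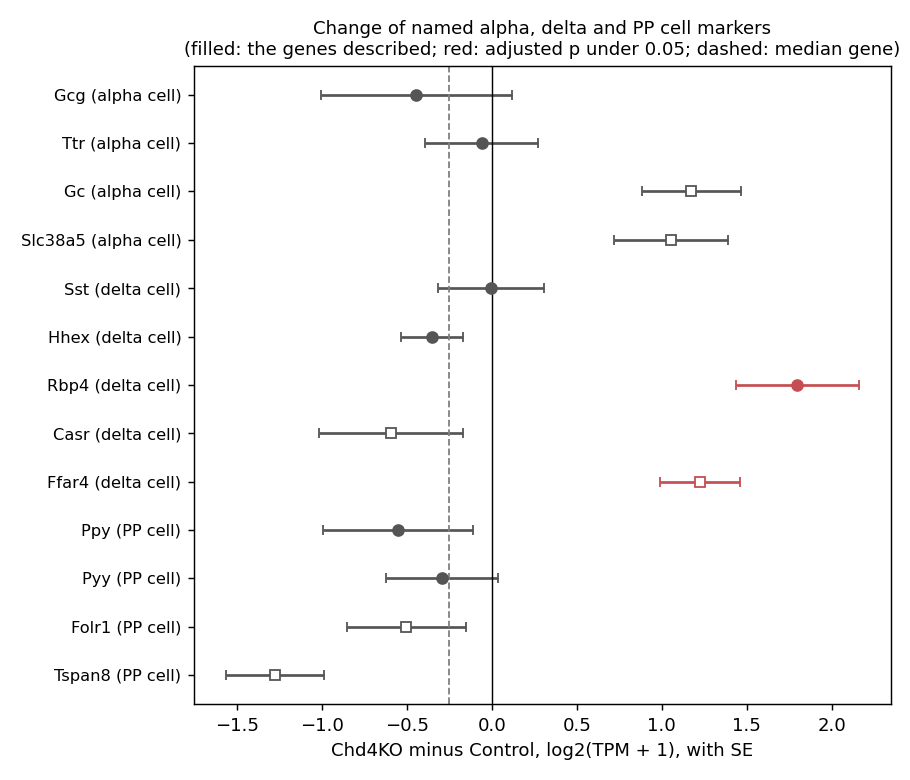
Log2 difference between Chd4KO and Control on the log2(TPM + 1) scale for the 7 tested genes (filled circles) and the other tested genes of the alpha, delta and PP cell lists that the text names (open squares), with limma standard errors (n = 4 per group) and the median of all 15189 tested genes (dashed). Rbp4, at 1.80 ± 0.36, and Ffar4, at 1.22 ± 0.24, are drawn in red for an adjusted p under 0.05; the sign for Ttr and Sst turned under other scalings.

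Among the alpha cell genes, Gcg encodes preproglucagon, the precursor of glucagon. Gcg stood at 1889, 2036, 2516 and 1217 TPM in Control replicates 1 to 4 and at 3934, 479, 1093 and 1661 TPM in Chd4KO replicates 1 to 4. The highest and the lowest library were both Chd4KO, replicates 1 and 2, so the groups overlapped fully. The means were 1915 ± 537 in Control and 1792 ± 1507 in Chd4KO libraries (TPM, SD, n = 4), and the log2 difference was -0.45 ± 0.56 (limma adjusted p = 0.673). The spread differed more than the mean, with Chd4KO libraries spanning 8.21-fold and Control libraries 2.07-fold. The log2 difference was -0.96 without Chd4KO replicate 1, -0.30 without Control replicate 3 and 0.06 without Chd4KO replicate 2, and it was -0.16 after median-of-ratios scaling.

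Ttr encodes transthyretin, a carrier of thyroid hormone and of the retinol-binding protein, and is abundant in alpha cells. Ttr stood at 102, 203, 313 and 231 TPM in Control replicates 1 to 4 and at 181, 247, 153 and 185 TPM in Chd4KO replicates 1 to 4. All 4 Chd4KO values lay inside the Control range. The means were 212 ± 87.2 and 192 ± 39.7 TPM (SD, n = 4), a log2 difference of -0.06 ± 0.33 (limma adjusted p = 0.929) whose sign turned to 0.23 under median-of-ratios scaling. The library orders of Ttr and Gcg were unlike each other. Chd4KO replicate 2, lowest of the 8 for Gcg, was the second highest for Ttr, and Chd4KO replicate 1, highest for Gcg, was 6th.

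Irx1 and Irx2 encode homeodomain factors of the Iroquois family and lie 665 kb apart on chromosome 13. Irx1 was read 12 times in all over the 4 Control libraries and 7 times over the 4 Chd4KO libraries, with 1 to 4 reads in each. Scaled to the reads in genes of each group (CPM) this came to 0.102 CPM (exact Poisson 95% interval 0.0526 to 0.178) in Control and 0.104 (0.0418 to 0.214) in Chd4KO. Irx2 stood at 1.12, 1.07, 0.727 and 0.382 TPM in Control replicates 1 to 4 and at 1.09, 0.518, 0.929 and 0.180 TPM in Chd4KO replicates 1 to 4. The groups overlapped, and replicate 4 was the lowest in both. Summed per group, Irx2 had 139 Control and 67 Chd4KO reads, or 1.18 (0.992 to 1.39) and 0.996 (0.772 to 1.26) CPM. For either gene the intervals, which cover counting error only, overlapped, so a difference was not detectable at this depth. Of the other Iroquois genes Irx6 was listed at 0 in every library and none of the 6 family members reached the filter.

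No gene of the alpha cell list of 11 was called in either direction, with 6 tested and a median log2 difference of -0.14. Gcg thus gave no call, but 2 other list members stood higher in Chd4KO at an unadjusted p under 0.05. Gc, the vitamin D-binding protein, ranged over 25.4 to 46.8 TPM in Control and over 46.2 to 103 TPM in Chd4KO libraries, a log2 difference of 1.17 ± 0.29 (limma adjusted p = 0.0709). Slc38a5, a glutamine transporter, was at 2.72 to 4.91 and 4.30 to 14.2 TPM, with a log2 difference of 1.05 ± 0.34 (limma adjusted p = 0.164). Both genes overlapped between the groups by a narrow margin, and both were highest in Chd4KO replicates 1 and 4. Pou3f4, another alpha cell factor, was at 0 to 0.0856 TPM in Control and at 0.145 to 0.848 TPM in Chd4KO libraries, without overlap but under the filter.

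Among the delta cell genes, Sst encodes somatostatin. Sst stood at 1322, 864, 958 and 578 TPM in Control replicates 1 to 4 and at 1028, 552, 967 and 1131 TPM in Chd4KO replicates 1 to 4. The groups overlapped over nearly their whole range. The means were 930.4 ± 307 and 919 ± 254 TPM (SD, n = 4), and the log2 difference of -0.01 ± 0.31 (limma adjusted p = 0.990) turned to 0.28 under median-of-ratios scaling.

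Hhex encodes the homeobox factor needed to maintain delta cells. Hhex stood at 1.45, 1.18, 1.11 and 1.05 TPM in Control replicates 1 to 4 and at 0.464, 0.924, 1.04 and 0.518 TPM in Chd4KO replicates 1 to 4. Every Chd4KO library was below every Control library, narrowly so between Control replicate 4 and Chd4KO replicate 3. The means were 1.2 ± 0.176 and 0.737 ± 0.289 TPM (SD, n = 4), and the log2 difference of -0.35 ± 0.18 did not pass the test (limma adjusted p = 0.373). These values rest on 314 reads in all in Control and 119 in Chd4KO. Scaled to depth, this came to 2.67 CPM (exact Poisson interval 2.38 to 2.98) in Control and 1.77 (1.46 to 2.12) in Chd4KO. The intervals, which cover counting error only and not the spread between libraries, did not overlap. At this level the pseudocount of 1 compresses the difference. On the scale of mean TPM the Chd4KO level was 61.4% of the Control level.

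Rbp4 encodes the plasma retinol-binding protein and is a marker of delta cells in the mouse islet. Its gene lies 676 kb from Hhex on chromosome 19. Rbp4 stood at 285, 125, 102 and 172 TPM in Control replicates 1 to 4 and at 747, 337, 569 and 646 TPM in Chd4KO replicates 1 to 4. All 4 Chd4KO libraries were above all 4 Control libraries. The means were 171 ± 81.3 and 575 ± 174 TPM (SD, n = 4), a 3.37-fold ratio, and the log2 difference of 1.80 ± 0.36 passed the test (limma adjusted p = 0.0330). In rank by mean TPM Rbp4 moved from 434th in Control to 84th in Chd4KO libraries. The log2 difference kept its sign in all 17 alternative fits (1.59 to 2.09), while the adjusted p, from 0.0201 to 0.128, was under 0.05 in 9 of them. The call was lost with a pseudocount of 0.1 (limma adjusted p = 0.0517), with no filter (0.0757) and when Control replicate 2 (0.128), 3 (0.107) or 4 (0.106) or Chd4KO replicate 1 (0.0803), 3 (0.122) or 4 (0.0527) was left out. Without both Chd4KO replicates 2 and 4, the libraries that stood apart, the difference was 2.04 (limma adjusted p = 0.0404).

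Of the delta cell list of 9, 6 were tested, 2 were called higher and none lower, and the median log2 difference was -0.18. The second call was Ffar4, a receptor for long-chain fatty acids, at 32.1, 21.5, 16.2 and 22.4 TPM in Control replicates 1 to 4 and 58.9, 59.6, 56.3 and 42.1 TPM in Chd4KO replicates 1 to 4. The groups did not overlap, and the log2 difference of 1.22 ± 0.24 passed (limma adjusted p = 0.0276), as it did in 10 of 17 alternative fits. The call was lost with a replicate block (limma adjusted p = 0.0654) and without Control replicate 2 (0.111), 3 (0.0942) or 4 (0.107) or Chd4KO replicate 1 (0.0711), 2 (0.0708) or 3 (0.112). The 2 delta list genes that rose are thus a secreted carrier and a surface receptor, while the list's hormone and its factor Hhex gave no call. Both lie close together on opposite strands of chromosome 19, Ffar4 at 38097071 to 38114263 and Rbp4 at 38116629 to 38125281. The libraries do not mark strand, and whether the 2 rises are separate was not tested. Casr, the calcium-sensing receptor, was at 21.3 ± 2.10 and 16.1 ± 9.89 TPM (SD, n = 4) and gave no call. Ghsr, the ghrelin receptor of delta cells, was at 0.318 TPM or less in every library, and Cckbr was listed at 0 in all 4 Chd4KO libraries.

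Set against Sst within the same library, Rbp4 was at 215, 145, 106 and 297 per 1000 TPM of Sst in Control replicates 1 to 4 and at 726, 610.2, 589 and 571 in Chd4KO replicates 1 to 4. All 4 Chd4KO ratios were above all 4 Control ratios, and they lay closer together, with an SD on the log2 scale of 0.155 against 0.649. The log2 difference of the ratio was 1.81 (exact permutation test, two-sided p = 0.0286, the smallest that 4 against 4 libraries can give, adjusted over 8 ratios p = 0.229). Such a ratio within a library does not depend on how TPM was scaled. Hhex per 1000 TPM of Sst was 1.10 to 1.82 in Control and 0.451 to 1.67 in Chd4KO libraries, a log2 difference of -0.77 (exact permutation p = 0.2, adjusted p = 0.8). Beside the hormone, Rbp4 was thus higher in every Chd4KO library, while Hhex overlapped between the groups.

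**Figure D3:**
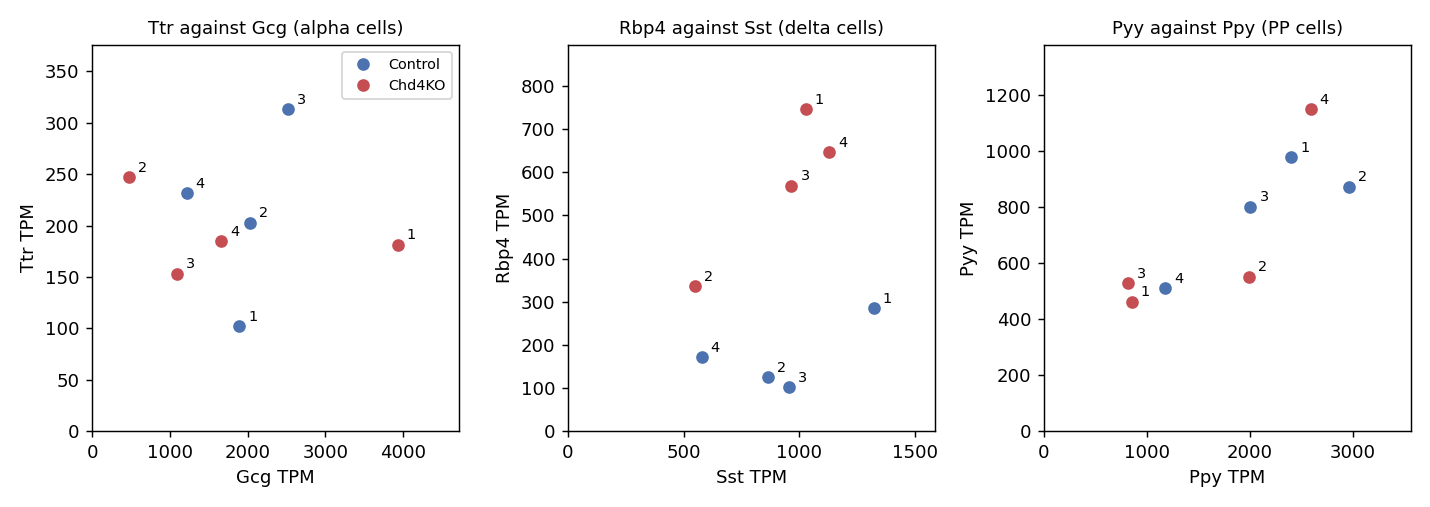
TPM of a marker against TPM of the hormone of its cell type in each library (linear axes, points labelled by replicate). Rbp4 lies higher in Chd4KO than in Control libraries at similar Sst, whereas Pyy is higher in libraries with higher Ppy (r = 0.85 on the log2 scale over the 8 libraries).

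Rbp4 in plasma travels bound to transthyretin and delivers retinol to the receptor Stra6. Of 7 genes of retinol carriage, 3 were tested and Rbp4 was the 1 called. Stra6 was at 0.0710 TPM or less in every library.

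Genes of other cells also moved between the groups in which Rbp4 moved. Of 10 leukocyte markers, 5 were tested and 2 rose: Cd68, a lysosomal protein of macrophages, from 1.55 ± 0.425 to 4.91 ± 0.791 TPM (SD, n = 4, limma adjusted p = 0.0132), and Fcer1g, a signalling chain of Fc receptors, from 15.8 ± 5.36 to 48.1 ± 17 TPM (limma adjusted p = 0.0482). Cd68 was called in 13 of 16 alternative fits and Fcer1g in 5 of 17. The summed level of the list was 32.3 to 59.0 TPM in Control and 56.8 to 105 TPM in Chd4KO libraries. The pan-leukocyte marker Ptprc was at 0.831 TPM or less and the macrophage marker Adgre1 at 0.306 TPM or less in every library. Of 7 ductal markers, 5 were tested and 1 fell, the chloride channel Cftr, from 4.04 ± 2.85 to 0.251 ± 0.218 TPM (SD, n = 4, limma adjusted p = 0.0238). No gene was called among 16 acinar (15 tested), 8 endothelial (2 tested), 8 mesenchymal (none tested) and 4 glial markers (1 tested). The summed levels were 5.58 to 6.09 TPM in Control and 6.38 to 9.79 TPM in Chd4KO libraries for the endothelial list, and 0.148 to 0.610 and 0.816 to 1.52 TPM for the mesenchymal list, neither with overlap. The part of such cells in the Rbp4 and Ffar4 values was not tested. Without the acinar-rich Chd4KO replicate 2 the log2 difference of Rbp4 was 2.03 (limma adjusted p = 0.0369), and that of Ffar4 was 1.18 and lost its call (limma adjusted p = 0.0708).

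Among the PP cell genes, Ppy encodes pancreatic polypeptide. Ppy stood at 2403, 2969, 2008 and 1179 TPM in Control replicates 1 to 4 and at 856, 1998, 816 and 2593 TPM in Chd4KO replicates 1 to 4. The 2 lowest libraries were Chd4KO replicates 1 and 3, but Chd4KO replicate 4 was the second highest of the 8. The means were 2139.8 ± 752 and 1566 ± 877 TPM (SD, n = 4), and the log2 difference was -0.56 ± 0.44 (limma adjusted p = 0.523). It was -0.27 after median-of-ratios scaling and -1.28 (limma adjusted p = 0.094) without both Chd4KO replicates 2 and 4. Leaving out 1 library moved it by over 1.5 times for Chd4KO replicate 1 (-0.33), 3 (-0.30) and 4 (-0.86).

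Pyy encodes peptide YY, a peptide of the same family, and its gene lies 5.36 kb from that of Ppy on chromosome 11. Pyy stood at 978, 874, 802 and 510.4 TPM in Control replicates 1 to 4 and at 462, 551, 528 and 1151 TPM in Chd4KO replicates 1 to 4. Chd4KO replicate 4 was the highest of the 8 libraries and Chd4KO replicate 1 the lowest. The means were 791 ± 201 and 673 ± 320.5 TPM (SD, n = 4), with a log2 difference of -0.29 ± 0.33 (limma adjusted p = 0.637). It was near 0 (-0.0040) after median-of-ratios scaling and -0.64 without both Chd4KO replicates 2 and 4. Leaving out 1 library moved it by over 1.5 times for Control replicate 1 (-0.18) and 4 (-0.49) and for Chd4KO replicate 1 (-0.15) and 4 (-0.58).

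The third member of the peptide family, Npy, encodes neuropeptide Y. It fell from 8.28 ± 4.55 to 1.10 ± 1.09 TPM (SD, n = 4), with a log2 difference of -2.20 ± 0.44 (limma adjusted p = 0.0312, under 0.05 in 5 of 16 alternative fits). Of the PP cell list of 6, 4 were tested, none was called and the median log2 difference was -0.53. Tspan8, a tetraspanin, had the most negative log2 difference of the 4, with 34.3 to 57.3 TPM in Control and 12.4 to 28.3 TPM in Chd4KO libraries. Its groups did not overlap, and the log2 difference of -1.28 ± 0.29 just missed the threshold (limma adjusted p = 0.0541). Folr1, a folate receptor, was at 11.7 ± 3.23 and 8.42 ± 4 TPM. Ghrl, the hormone of the rarer epsilon cells, did not exceed 0.384 TPM in any library.

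Set against insulin, none of the 3 other hormones passed the test between genotypes. Per 1000 TPM of Ins1 plus Ins2, Gcg was at 4.96, 5.08, 6.02 and 2.98 in Control replicates 1 to 4 and at 10.8, 1.48, 2.33 and 2.68 in Chd4KO replicates 1 to 4. Chd4KO replicate 1 was thus the highest and the other 3 Chd4KO libraries lay below every Control library (log2 difference -0.55, exact permutation p = 0.400, adjusted over 3 hormones p = 0.600). Without Chd4KO replicate 1 the difference was -1.14 (exact permutation p = 0.0571), and without replicate 2 it was -0.18 (p = 0.714). Sst was at 1.41 to 3.47 in Control and 1.70 to 2.82 in Chd4KO libraries on this scale, a log2 difference of -0.11 (exact permutation p = 0.714). Ppy was at 2.89 to 7.41 and 1.74 to 6.17, a log2 difference of -0.66 (exact permutation p = 0.229, adjusted p = 0.600).

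Across libraries no pair of the 9 genes passed adjustment, and Ppy with Pyy had the highest r. Over the 8 libraries, r between Ppy and Pyy on log2(TPM + 1) was 0.85 (exact permutation p = 0.0112, adjusted over 36 pairs p = 0.404) and rho was 0.86 (exact permutation p = 0.0107, adjusted p = 0.386). This was the 1 pair of the 36 with a p for r under 0.05 before adjustment, and none passed after it. Without the 2 libraries farthest from the median of Ppy, Chd4KO replicates 1 and 3, r was 0.80. With genotype means subtracted it was 0.83 (permutation within genotypes, exact p = 0.0104, adjusted p = 0.375), and r lay between 0.80 and 0.93 when any library was left out.

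The alpha cell genes gave lower values. With Gcg, r was -0.13 for Ttr (exact permutation adjusted p = 0.966, rho -0.05, adjusted p = 1), and without Chd4KO replicates 1 and 2, the libraries farthest from the median of Gcg, it turned to 0.28. Irx2 gave r = 0.43 and Irx1 0.09 with Gcg (exact permutation adjusted p = 0.966 for both), where Irx1 rests on single reads. Rbp4 and Hhex fall into separate clusters by genotype, so the 15 pairs that hold either were read only with genotype means subtracted. On that basis r was 0.62 between Sst and Rbp4 and -0.09 between Sst and Hhex (permutation within genotypes, exact adjusted p = 0.938 and 0.979). A second pair with an unadjusted p under 0.05 on that basis was Ttr with Rbp4, from different cell types, at -0.85 (exact p = 0.0278, adjusted p = 0.500), which was -0.20 after median-of-ratios scaling. Across cell types the hormones Gcg and Sst gave 0.68 (exact p = 0.0764, adjusted p = 0.917). Over all 8 libraries without subtraction r of Gcg and Sst was 0.66, and without Chd4KO replicate 2 it was 0.35, below Gcg with Irx2 at 0.40. With genotype means subtracted, the median r was 0.00 over the 10 pairs within a cell type and -0.09 over the 26 pairs between types, and 5 of 10 and 11 of 26 were above 0. Within a type r ran from -0.44 to 0.83 on that basis, and between types from -0.85 to 0.68. After median-of-ratios scaling the medians were 0.20 and 0.25, with 8 of 10 and 19 of 26 above 0. The ranges were then -0.70 to 0.90 within a type and -0.42 to 0.84 between types, the last for Sst with Pyy. The pairs share the same 8 libraries and their scaling, so the 36 values are not independent.

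**Figure D4:**
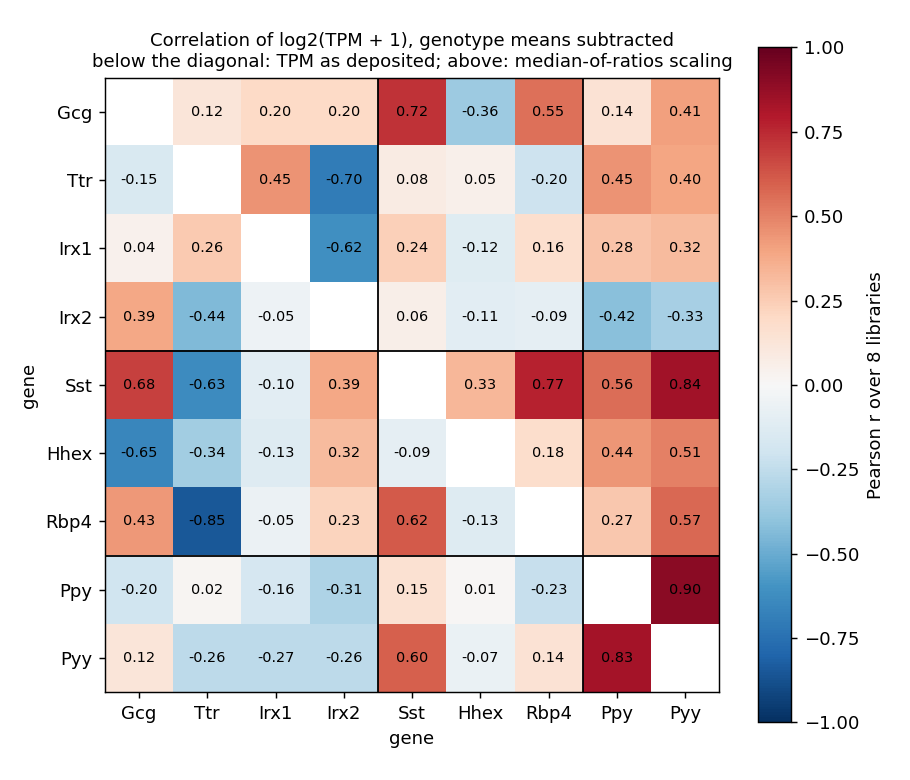
Pearson r of log2(TPM + 1) over 8 libraries for the 36 gene pairs with genotype means subtracted, from TPM as deposited below the diagonal and after median-of-ratios scaling above it. Ppy and Pyy have the highest value (0.83 and 0.90), while the alpha pairs of Gcg with Ttr, Irx1 and Irx2 lie between -0.15 and 0.39 below the diagonal. Sst with Pyy, from different cell types, is at 0.60 below and 0.84 above it.

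The hormones also varied against each other within libraries, most of all in the Chd4KO group. Per 1000 TPM of Gcg, Ppy was at 798 to 1458 in Control libraries but at 218, 4168, 747 and 1561 in Chd4KO replicates 1 to 4. The extremes were again Chd4KO replicates 1 and 2, which had the most and the least Gcg. Ttr per 1000 TPM of Gcg ran from 54.1 to 190.1 in Control and from 46.1 to 516 in Chd4KO libraries (log2 difference 0.38, exact permutation p = 0.686). Sst per 1000 TPM of Gcg ran from 381 to 699.9 and from 261 to 1151 (log2 difference 0.44, exact permutation p = 0.429). Pyy per 1000 TPM of Ppy was the steadiest ratio, at 407, 294, 399 and 433 in Control and 540.1, 276, 648 and 444 in Chd4KO replicates 1 to 4 (log2 difference 0.26, exact permutation p = 0.371). The highest of these 8 values was 2.35 times the lowest, against 19.1 times for Ppy over Gcg. None of the 8 ratios passed adjustment.

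**Figure D5:**
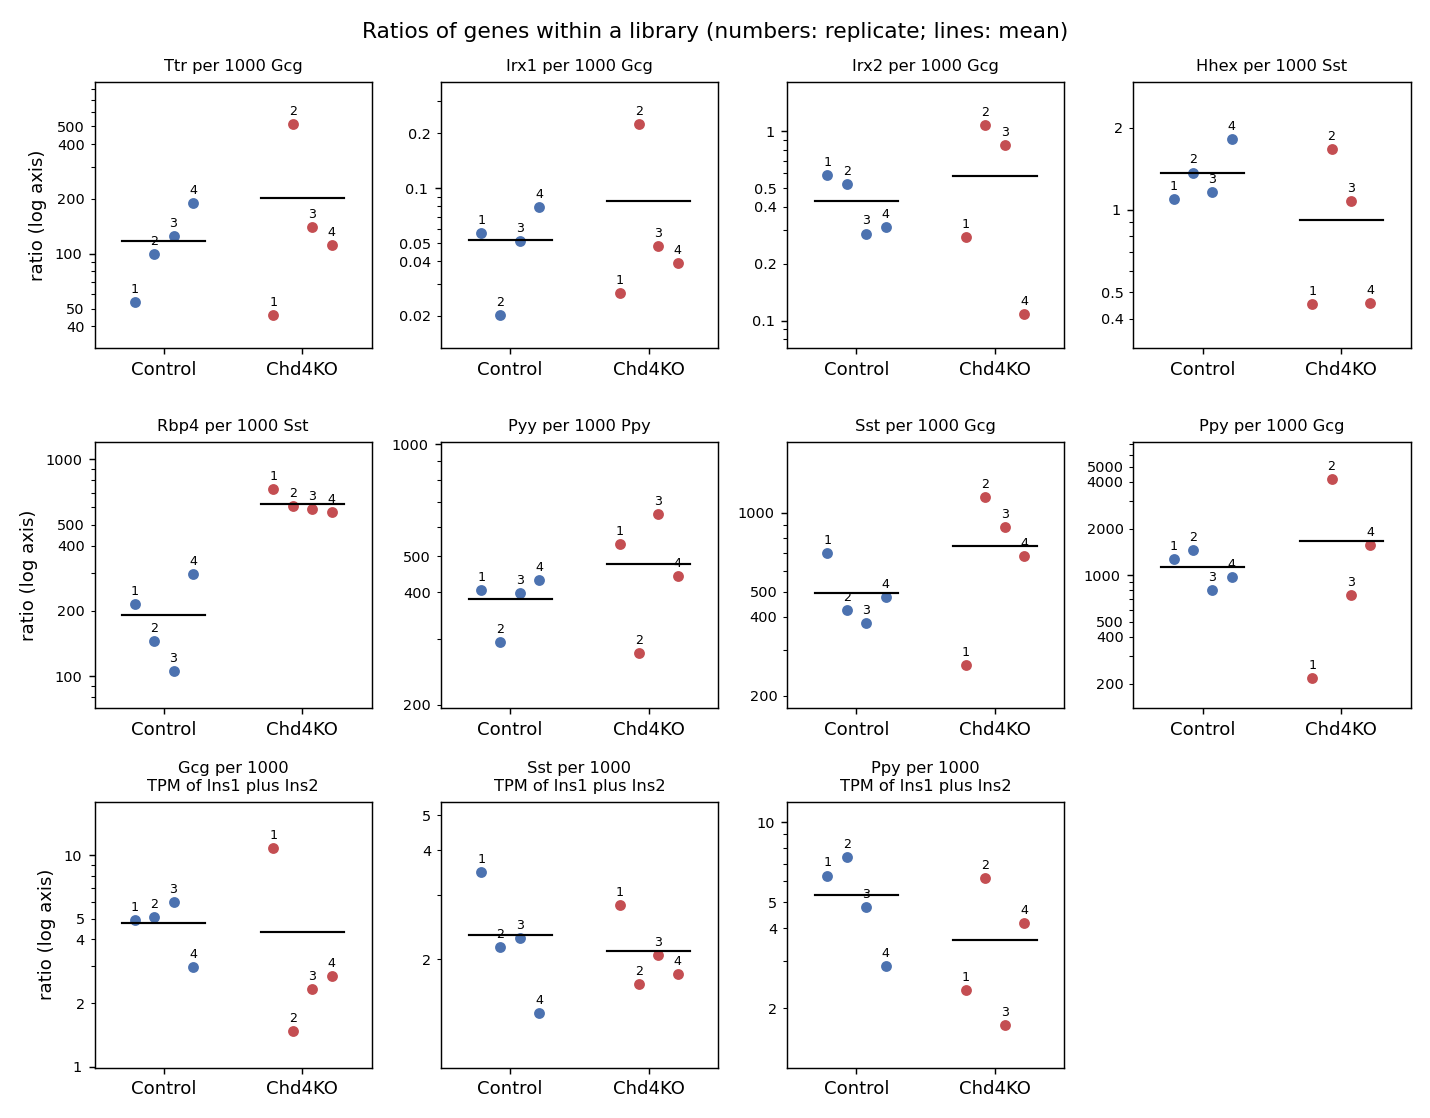
Ratio of a gene to the hormone named in each panel, per 1000 TPM of that hormone, in each library on a log axis whose range differs between panels (points labelled by replicate, lines are group means, n = 4). Rbp4 over Sst is the 1 ratio whose groups do not overlap, at 106 to 297 in Control and 571 to 726 in Chd4KO libraries.

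The lists of prohormone processing genes and of endocrine transcription factors gave no call. Of 6 genes of prohormone processing, all were tested and none was called, among them Cpe, the carboxypeptidase that trims peptide hormones, at 3123 ± 143 and 3866 ± 527 TPM (SD, n = 4, limma adjusted p = 0.408). Pcsk2, the convertase that releases glucagon, was at 901 ± 69.6 and 718 ± 277 TPM. Of 10 endocrine transcription factors 8 were tested and none was called, with Neurod1 at 186 ± 26.2 and 144 ± 59.6 TPM and Isl1 at 89.4 ± 2.40 and 80.2 ± 10.7 TPM. Pax4 was listed at 0 in all libraries.

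Of 12 islet hormone receptors 5 were tested and none was called, with Glp1r, which binds the glucagon-like peptide, at 416 ± 138 and 186 ± 103 TPM (SD, n = 4, log2 difference -1.30 ± 0.47, limma adjusted p = 0.217). Sstr3, a somatostatin receptor, was at 85.2 ± 15.3 and 85.8 ± 44.6 TPM. Sstr5, another somatostatin receptor under the filter, had 3 reads in Control replicate 2 and 0 in the other 3 Control libraries, and 46, 10, 16 and 29 reads in Chd4KO replicates 1 to 4. Its TPM of 0 to 0.0592 in Control and 0.518 to 2.32 in Chd4KO libraries did not overlap. The receptors Npy2r, Npy4r and Npy5r of the pancreatic polypeptide family were listed at 0 in all 8 libraries. In the beta cell list of 10, by contrast, 2 genes fell: Mafa, a factor of mature beta cells (limma adjusted p = 0.0229), and Slc2a2, the glucose transporter (limma adjusted p = 0.0310), called in 12 and 9 of 17 alternative fits.

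As a description, the protein-coding genes most like each of 4 members over the 8 libraries were ranked by Pearson r on the log2 scale after median-of-ratios scaling, among 8457 genes of at least 5 TPM on average. For Gcg they were Hccs (r = 0.96), Zfp553, Igsf5, Anks3 and Edem1. For Sst they were Mier2 (0.97), Trim11, Alg3, St6galnac4 and Zfp677, and for Ppy Ntpcr (0.96), Carnmt1, Tmem184a, Ccdc17 and Rnpep. None of these 15 is on the marker lists. For Rbp4 they were Gpx3 (0.99), Creb3l1, Fcer1g, Enpp2 and Ctu1. Genotype means were not subtracted here, so r with Rbp4, whose groups do not overlap, also holds the difference between genotypes. Gpx3, the secreted glutathione peroxidase, rose from 1627 ± 450 to 4349 ± 1442 TPM (SD, n = 4), with a log2 difference of 1.39 ± 0.31 (limma adjusted p = 0.0474). Enpp2, the secreted enzyme autotaxin, was at 978 ± 184 and 1104 ± 301 TPM and gave no call (limma adjusted p = 0.749). For both genes the means and the limma test used TPM as deposited, whereas r was taken after median-of-ratios scaling. No p is attached to these values of r, which were selected as the highest of many.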

How the data were processed

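RNA of 8 sorted beta cell libraries was measured as TPM, 1 table per library, as deposited by the authors. Per the labels' protocols the libraries were made with SMART-Seq v4 and Nextera XT kits, which do not mark strand, and no annotated gene overlaps any of the 9 genes. The tools HISAT2, HTSeq, Trimmomatic, FastQC and DESeq2 and the build mm10 are listed, per the submitters' processing notes, and their versions, roles and settings are not given in the sources used here. TPM sums to a fixed total, so a larger share for insulin lowers every other gene.

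Symbols and exon lengths came from GENCODE M21, which held 99.5% of the identifiers. TPM multiplied by exon length was a whole multiple of a library-specific step, within 0.05 of a read, for 98.5 to 98.7% of values above 0, and these recovered reads gave depth, counting intervals and an alternative test. The main test was limma 3.58.1 (R 4.3.3) on log2(TPM + 1), genotype only, two-sided, with Benjamini-Hochberg adjustment over all genes of at least 1 TPM in at least 4 libraries. Differences on that scale understate changes of genes with low TPM. Ratios, hormones per insulin and correlations had exact permutation tests in scipy 1.17.1 (Python 3.11.15). Scripts were tested on simulated data. Replicates of a group correlated at 0.870 to 0.985.

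Alternatives were another pseudocount, filters, scalings, a variance trend, a replicate block, limma voom on recovered reads and leaving libraries out. The 9 genes, the marker lists and the tests were chosen with earlier results of these data known. The rule for naming genes took the 9 genes, Chd4, Ins1 and Ins2, from each list up to 4 called genes or, with at most 1 called, also the 2 most abundant tested ones, and the 5 genes most alike for 4 hormone or marker genes. Outside that rule, Gc, Slc38a5, Pou3f4, Casr, Ghsr, Cckbr, Tspan8, Folr1, Ghrl, Stra6, Irx6, Ptprc, Adgre1, Pax4, Sstr5, Npy2r, Npy4r and Npy5r were named after their values were seen. Promoter windows came from RefSeq. Some genes of the lists are counted but not reported here by name.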

Additional observations from a re-analysis of the deposited data

Results flagged for a closer look

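Among 46 sets of 4 libraries checked for a single library far from the rest, 3 were marked, where the gap to the nearest library, as a share of the whole range, passed Dixon's 95% critical value. Chance marks about 1 in 20 such sets. In the Chd4KO group, replicate 4 had the highest Pyy, at 1151 TPM, with a gap of 0.871 of the range. That library also had the largest insulin share. Chd4KO replicate 2 had the highest ratio of Irx1 to Gcg, at 0.225 per 1000 TPM, with a gap of 0.891 of the range, and its Irx1 value rests on 2 reads. Chd4KO replicate 1 had the highest Gcg beside insulin, at 10.8 per 1000 TPM of Ins1 plus Ins2, with a gap of 0.871 of the range.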

How the results depend on the processing

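The count of 451 called genes (233 higher, 218 lower) was 220 with a filter of 5 TPM, 752 (467 higher, 285 lower) after median-of-ratios scaling, 782 (442 higher, 340 lower) when scaled without hormones and mitochondrial genes, 589 without both Chd4KO replicates 2 and 4 (an alternative chosen after seeing the data), and 135 to 630 when 1 library was left out. The median log2 difference of all genes was -0.02 after median-of-ratios scaling and -0.06 without Chd4KO replicate 4. Of the 9 genes, 0 were called with a pseudocount of 0.1 and 0 with no filter, and 0 to 1 when 1 library was left out; Rbp4 kept its call only without Control replicate 1 or Chd4KO replicate 2. With the replicate block 274 genes and 1 of the 9 were called, and Ffar4 lost its call (limma adjusted p = 0.0654). Same-numbered Control and Chd4KO libraries correlated at -0.02, 0.43, 0.08 and 0.04, on another measure than the replicate correlations given above. Of 4 Control libraries, 1 was closest to its own number. These values show no steady likeness by number, but so few cannot decide whether the numbers pair the mice.

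Signs turned for the values that follow, none of which had passed its test. Without both Chd4KO replicates 2 and 4, Gcg was at 0.16 and Sst at 0.16. After median-of-ratios scaling Ttr was at 0.23, Sst at 0.28, r of Gcg and Ttr at 0.10 and r of Sst and Hhex at 0.15. Scaled without hormones and mitochondrial genes the values were 0.0953, 0.15, 0.0236 and 0.0639. With voom Ttr was at 0.050 and Sst at 0.11, with a pseudocount of 0.1 r of Irx1 and Irx2 was 0.0213, and with a pseudocount of 1 the log2 difference of Irx2 over Gcg was 0.31. Leaving out 1 library gave -0.96 to 0.056 for Gcg, -0.37 to 0.16 for Ttr and -0.22 to 0.22 for Sst. It gave r of -0.39 to 0.16 for Gcg and Ttr, -0.0826 to 0.47 for Gcg and Irx1, -0.065 to 0.73 for Ttr and Irx1, -0.32 to 0.27 for Irx1 and Irx2 and -0.45 to 0.16 for Sst and Hhex. Log2 differences over Gcg were -0.25 to 0.91 for Ttr, -0.33 to 0.69 for Irx1, -0.48 to 0.63 for Irx2 and -0.79 to 0.63 for Ppy, and Sst over insulin was at -0.32 to 0.11. The causes were not tested. At the depth of these libraries Irx1, Irx2 and Hhex rest on few reads. Of these genes, Hhex alone had counting intervals that did not overlap between the groups.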
